A study of Mus musculus with 6 samples.

Results

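AP-1 transcription factors were examined as 10 genes of the 24935 in the table of hippocampal expression, taken by gene name: the Fos group (Fos, Fosb and Fosl2), the Jun group (Jun, Junb and Jund), Atf3 and Batf3, and the small Maf genes Maff and Mafg. AP-1 proteins carry a basic region that contacts DNA and a leucine zipper (bZIP) through which they bind in pairs. Jun proteins pair with each other or with Fos, ATF or BATF proteins, whereas Fos proteins need a partner. In the hippocampus Fos, Fosb and Junb are known as immediate early genes that neuronal activity switches on within minutes, and Jun is also known for its response to injury and to Jun kinases. Small Maf proteins bind DNA but lack a transactivation domain, and they pair with NRF2 and BACH proteins.

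The samples came from C57BL/6 pups of both sexes, kept with their dams from P2 (postnatal day 2) to P14 either in room air (air group) or in 85% oxygen (hyperoxia group). RNA from the left hippocampus was collected at P14, with 1 library for each of 3 animals per group. No other treatment is given for either group, and the sources used here do not say whether animals of a group shared a litter. Libraries are numbered 1 to 3 as in the table's column headings, which name the group but not the animal. Every direction below follows those headings and is in doubt to that extent. The tables of the published study sign the expression changes of Jun, Arc and Egr1 in hyperoxia the opposite way. For Arc and Egr1 the published text is divided, calling their mRNA decreased with hyperoxia in its results and increased in its discussion. Which of these sources has the groups the right way round was not settled here. If the headings were exchanged, every "higher" and "lower" below would turn, while the sizes of the differences and their tests would stay.

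Between 30384052 and 38746972 reads on genes were recovered per library. Values are normalized counts, that is reads divided by 1 size factor per library. Changes are differences of log2(normalized count + 1), hyperoxia minus air, and at low counts this scale makes a change look smaller than it is. A mean of 10 or more was reached by 17778 of the 24935 genes, which were tested with limma, and a gene is called where its p-value is under 0.05 after Benjamini-Hochberg adjustment across the 17778 genes. All 10 hippocampal neuron markers were detected, and 4 of them were lower in hyperoxia-exposed mice (none higher). Among markers of other cells, 7 of 8 oligodendrocyte genes were lower, and 6 of 8 endothelial and 4 of 8 thalamic genes were higher. Further, 3 of 8 astrocyte genes were higher and 1 was lower, 2 of 8 microglial genes were higher, 1 of 8 choroid plexus genes was higher, and of 6 blood genes tested 1 was higher and 1 lower. These counts are of called genes, and over all genes tested 15.6% were called lower and 14.9% higher. The summed normalized count of the thalamic list was 6829 to 7477 in air and 8553 to 12103 in hyperoxia, highest in library 2. That of the choroid plexus list was 8420 in hyperoxia library 3 and 646 to 1608 in the other libraries. The oligodendrocyte list summed to 212519 to 323788 in air and 145471 to 178196 in hyperoxia, and the endothelial list to 8978 to 9164 and 11418 to 12909. The sums in air and hyperoxia were 60307 to 63594 and 39825 to 57639 for the neuronal list, 203420 to 213015 and 238892 to 257925 for astrocytes, 12072 to 12378 and 12333 to 13948 for microglia, and 1748 to 2843 and 2533 to 4053 for blood. No marker was at 0 in every library. The 6 AP-1 genes called below stayed called without hyperoxia library 2 or 3. Leaving out a library does not remove these marker differences, because the neuronal, thalamic, oligodendrocyte, endothelial and astrocyte sums did not overlap between the groups. The part of these cells in the AP-1 results was not tested. In whole tissue, fewer cells of a type and less RNA per cell cannot be told apart.

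Expression of the AP-1 genes moved in both directions. In the columns headed as hyperoxia, mean normalized counts of Jun, Junb, Jund and Fosb were between 49.8% and 64.7% of those in the columns headed as air, and those of Fosl2 and Maff were 140% and 217%. The direction, opposite to the published sign for Jun, rests on the headings alone. Of the 10 genes, 6 were called, 4 lower and 2 higher, where 30.5% of all genes tested were called, 15.6% lower and 14.9% higher. In 8 of the 10 genes the groups did not overlap, against 46.1% of all genes tested. Because the genes moved both ways, the median change over the 10 was −0.06, beside −0.0072 over all genes. The same 6 genes were called under each of 16 alternative analyses, which included leaving out each library in turn. The plot of changes sets the genes side by side.

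**Figure D1:**
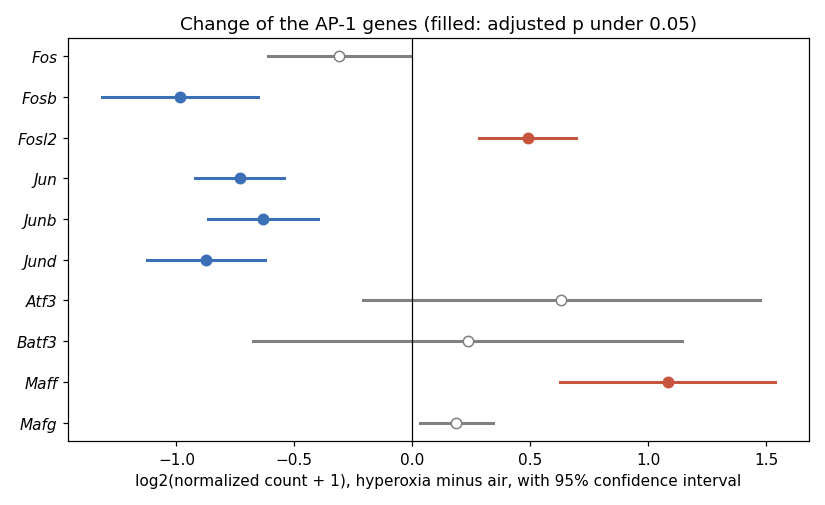
Change of each AP-1 gene as the difference of log2(normalized count + 1), hyperoxia minus air (points), with its 95% confidence interval from limma (bars), n = 3 per group. Filled points are called genes (blue lower, red higher) and open grey points are not called: the 3 Jun genes and Fosb lie left of 0, Fosl2 and Maff lie right of 0.

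The sequence just before the start of 5 of these genes is given because the motifs that AP-1 and CREB proteins bind can be read in it directly. The sequences are the last 120 bases before the RefSeq start (GRCm38.p6), 5′ to 3′ on the strand of the gene, and capitals mark TGACG, the core of the cAMP response element, or the 8-base motif TGACNTCA, each searched on both strands. For Maff the second of 3 annotated starts is shown, and the first held neither motif. Of the called genes, Fosl2 and Jund also held neither motif in the 250 bases searched and are not printed.
Fos (chr12:85473770-85473889, plus strand): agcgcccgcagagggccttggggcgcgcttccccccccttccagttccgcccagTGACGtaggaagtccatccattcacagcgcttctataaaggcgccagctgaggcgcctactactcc
Fosb (chr7:19310046-19310165, minus strand): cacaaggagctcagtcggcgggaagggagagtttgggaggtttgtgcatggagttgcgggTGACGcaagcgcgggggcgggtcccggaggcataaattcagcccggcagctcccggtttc
Jun (chr4:95052223-95052342, minus strand): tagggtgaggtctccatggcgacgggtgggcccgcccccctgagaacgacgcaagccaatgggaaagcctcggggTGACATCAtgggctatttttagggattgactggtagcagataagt
Junb (chr8:84978749-84978868, minus strand): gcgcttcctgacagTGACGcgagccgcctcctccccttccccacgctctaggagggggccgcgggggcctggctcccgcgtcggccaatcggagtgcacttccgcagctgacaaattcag
Maff (chr15:79347400-79347519, plus strand): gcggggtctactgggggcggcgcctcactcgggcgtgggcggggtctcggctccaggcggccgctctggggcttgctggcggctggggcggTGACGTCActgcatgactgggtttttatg

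All 10 genes had an entry in the RefSeq promoter table, and the search covered the 250 bases before each start. TGACG was found in Fos at 2 places (bases 129 to 125 and 66 to 62 before the start), and once each in Fosb, Junb, Atf3 and Mafg. Maff held it before 2 of its 3 starts. Of all 32851 promoters of this length, 17.8% held TGACG. The motif TGACNTCA, which includes TGACG where N is G, was found in Jun as TGACATCA (bases 45 to 38) and in Maff as TGACGTCA (bases 29 to 22 before the second start) and TGACATCA (before the third), and in 7.49% of all promoters. Within these 250 bases, the 7-base AP-1 motif TGANTCA was found in none of the 10 genes (6.75% of all promoters). Nor was the CArG box, bound by the serum response factor (1.47%). Sequence farther from the starts was not searched, so both absences hold for this window only. GGGCGG, the binding motif of SP1, was found in Fos, Fosb, Fosl2, Jun, Atf3, Batf3 and Maff, and in 32.7% of all promoters. Genes with TGACG were thus found among those that were lower (Fosb, Junb), higher (Maff) and not called (Fos, Atf3, Mafg). For Jund the RefSeq start used lies before the start of the GENCODE gene by more than the window searched.

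The 3 Jun genes were all reduced. Jun encodes the best known partner of Fos proteins, and lies at chr4:95049034-95052222 (minus strand) (GRCm38). Its normalized count was 4454, 3930 and 4062 for air animals (libraries 1, 2 and 3) and 2381, 2744 and 2373 for hyperoxia animals. No hyperoxia library reached the lowest air value, and hyperoxia library 2 came nearest to it. From an air mean of 4149 ± 272 (SD, n = 3) and a hyperoxia mean of 2499 ± 212 (SD, n = 3), the log2 change was −0.73 (standard error 0.08, limma adjusted p = 6.5e-04).

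Jund encodes the Jun protein with the steadiest expression in most tissues, and lies at chr8:70698949-70700616 (plus strand). Normalized counts were 1754, 1517 and 1623 in air and 790.3, 1048 and 845 in hyperoxia. The groups stood apart, and the hyperoxia mean was 54.8% of the air mean. At −0.87 (standard error 0.11, limma adjusted p = 9.8e-04), its log2 change was the largest of the 3 Jun genes under the main analysis, although the 95% intervals of Jund (−1.12 to −0.62) and Jun (−0.92 to −0.54) overlapped and their difference was not tested.

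Junb encodes a Jun protein that activates transcription less strongly than Jun on many targets, and lies at chr8:84974484-84978718 (minus strand). The air libraries had normalized counts of 1415, 1268 and 1449, and the hyperoxia libraries 835, 1025 and 813. Again the groups did not overlap and hyperoxia library 2 was the highest of its group. The log2 change was −0.63 (standard error 0.10, limma adjusted p = 0.0025). As each library was left out in turn, the change ranged between −0.80 and −0.68 for Jun, −0.99 and −0.79 for Jund, and −0.74 and −0.57 for Junb. The transcripts of Jund and Junb are GC-rich (67.1% and 62.6%), and after correction for transcript length and GC content the changes were −0.77 and −0.47, both still called. Exons of Junb overlap those of Prdx2, a peroxiredoxin gene on the other strand whose normalized count was higher in hyperoxia (3825 in air and 4874 in hyperoxia, log2 change 0.34, limma adjusted p = 0.044). Exons of Jun overlap the antisense gene Junos, which had a normalized count of 38.4 in air and 32.1 in hyperoxia. The sources used here do not say whether reads were counted by strand.

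**Figure D2:**
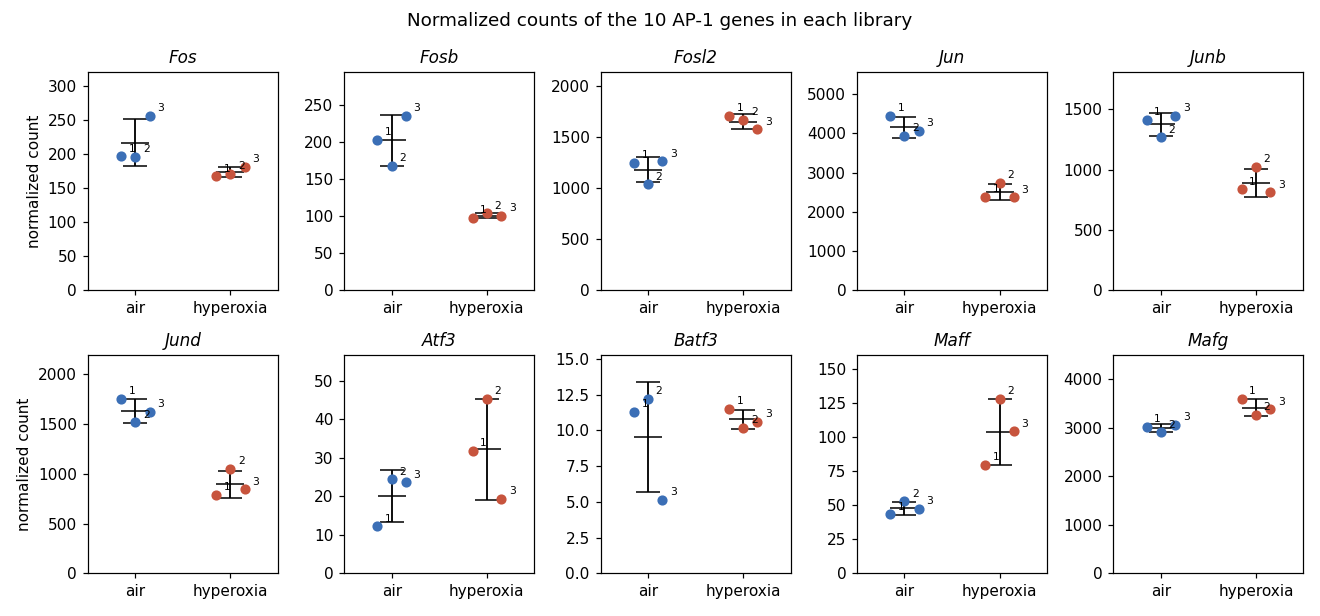
Normalized count of each AP-1 gene (vertical axes, each from 0) in the 3 air (blue) and 3 hyperoxia (red) libraries, numbered 1 to 3, with the group mean and SD in black. The groups do not overlap in any gene except Atf3 and Batf3.

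The 3 Fos genes did not move as 1 group. Fosb, whose splice form ΔFosB is known to build up in neurons under repeated activity, lies at chr7:19302696-19310051 (minus strand). Its normalized count was 203, 168 and 236 in air and 98.1, 104 and 100.4 in hyperoxia. The hyperoxia libraries lay within a narrow range, and all were below the air libraries. The air mean of 202 ± 34.1 (SD, n = 3) and the hyperoxia mean of 100.9 ± 3.05 (SD, n = 3) differed by −0.98 on the log2 scale (standard error 0.15, limma adjusted p = 0.0018), between −1.11 and −0.87 with each library left out.

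Fos, the founding member of the family and the usual marker of recently active neurons, lies at chr12:85473890-85477273 (plus strand). Normalized counts were 197, 196 and 257 in air and 167, 171 and 181 in hyperoxia. All air libraries were above all hyperoxia libraries, but air library 3 stood above the other air libraries. The log2 change was −0.31 (standard error 0.13, 95% interval −0.61 to −0.01, limma adjusted p = 0.11), so Fos was not called. None of the 16 alternatives called Fos (adjusted p from 0.060 to 0.35), and without air library 3 the change was −0.18.

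Fosl2 encodes FRA2, a Fos protein that lacks the transactivation domain of Fos and Fosb, and lies at chr5:32135801-32157842 (plus strand). In contrast to the other Fos genes, its normalized count was 1244, 1036 and 1262 in air and 1709.6, 1669.9 and 1573 in hyperoxia. All hyperoxia libraries were above all air libraries. The rise from 1181 ± 126 (air, SD, n = 3) to 1651 ± 70.1 (hyperoxia, SD, n = 3) was 0.49 in log2 units (standard error 0.09, limma adjusted p = 0.0044). It ranged from 0.40 to 0.54 as each library was left out, and was 0.37 after the length and GC correction.

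Per kilobase of the longest coding transcript, the level of the summed Fos group overlapped between air and hyperoxia libraries, at 337 ± 40.6 (SD, n = 3) normalized counts in air and 361 ± 7.12 (SD, n = 3) in hyperoxia, but the shares of its genes did not. Fosl2 made up 56.4%, 53.5% and 51.2% of the sum in the 3 air libraries, against 71.3%, 70.2% and 68.1% under hyperoxia. Fosb made up 15.8% ± 0.783 in air and 7.38% ± 0.269 in hyperoxia (SD, n = 3), and Fos 27.7% to 32.3% and 21.6% to 24.4%. The overlap of the Fos group levels depends on the division by transcript length. Without it the group summed to 1400 to 1755 normalized counts in air and 1855 to 1975 in hyperoxia, with no overlap. The summed Jun group was 2843 to 3230 normalized counts per kilobase in the air libraries and 1682 to 2055 in the hyperoxia libraries, with no overlap. Within it the share of Jun overlapped between the groups, at 41.8% to 43.3% in air and 41.9% to 44.4% in hyperoxia. Those of Jund (31.9% to 32.55% in air, 28.2% to 30.6% in hyperoxia) and Junb (24.2% to 26.3% and 26.4% to 27.6%) did not overlap. The level of the Jun group was 9.08 ± 0.87 (SD, n = 3) times that of the Fos group in air and 5.01 ± 0.56 (SD, n = 3) times in hyperoxia, and the libraries of the groups did not overlap. Shares and ratios within a library do not depend on its size factor. These sums and ratios were chosen after the values were seen and are given without a test.

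**Figure D3:**
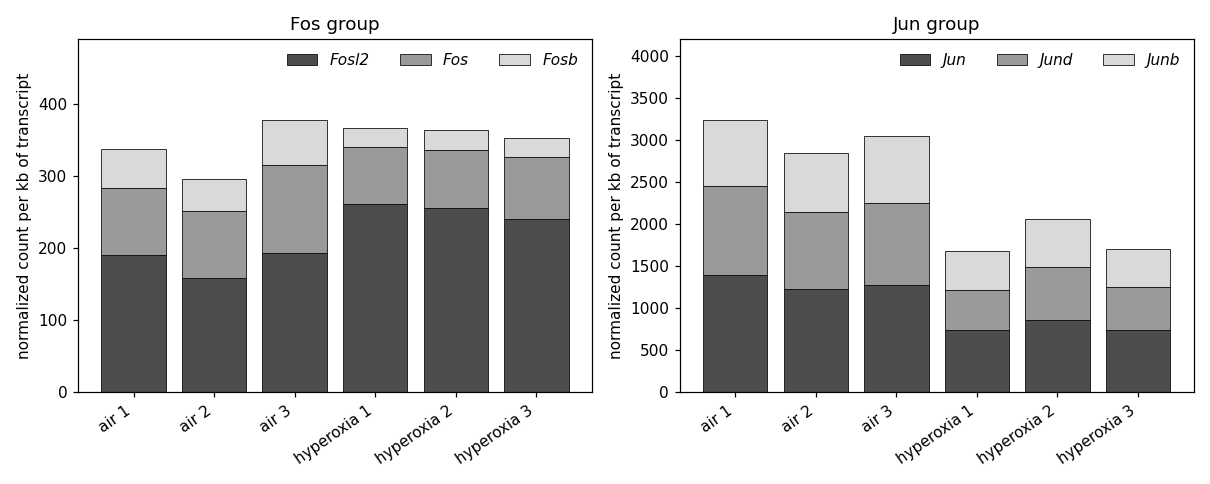
Level of the Fos group (left) and the Jun group (right) in each library, in normalized counts per kilobase of transcript, stacked by gene. The Fos group bars of air and hyperoxia overlap in height while the dark Fosl2 part is larger in hyperoxia (68.1% to 71.3% against 51.2% to 56.4%), and the Jun group bars are shorter in all 3 hyperoxia libraries.

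The small Maf genes were higher or did not pass the test. Maff, a small Maf gene known for its induction by stress and cytokines, lies at chr15:79346621-79359076 (plus strand). Its normalized count was 43.3, 52.9 and 47.2 in air and 79.6, 128 and 104 in hyperoxia. The hyperoxia libraries were all above the air libraries but spread more widely among themselves. With means of 47.8 ± 4.82 (SD, n = 3) and 103.9 ± 24.2 (SD, n = 3), the difference of 1.08 (log2, standard error 0.20, limma adjusted p = 0.0044) was the larger of the 2 called rises, and it was 0.92 without hyperoxia library 2. Between 46 and 113 reads per library lay behind these values.

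Mafg, the small Maf gene with by far the higher count here, lies at chr11:120625117-120633600 (minus strand). Normalized counts were 3027, 2908 and 3067 in air and 3599, 3272 and 3382 in hyperoxia. All hyperoxia libraries exceeded all air libraries, but the difference of 0.19 (standard error 0.07, 95% interval 0.03 to 0.34, limma adjusted p = 0.066) missed the threshold. It was called without hyperoxia library 2 (0.22, limma adjusted p = 0.014) and after the length and GC correction (0.16, limma adjusted p = 0.042), and under none of the other 14 alternatives. Exons of Mafg overlap those of Sirt7 on the same strand, a sirtuin gene whose normalized count was lower in hyperoxia (1492 in air and 1111 in hyperoxia, log2 change −0.42, limma adjusted p = 0.0032).

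Atf3 and Batf3 were measured with few reads. Atf3, a stress-induced repressor that also marks injured neurons, lies at chr1:191170296-191218039 (minus strand). Its normalized count was 12.2, 24.4 and 23.6 in air and 31.8, 45.3 and 19.3 in hyperoxia, from 13 to 40 reads per library. Hyperoxia library 3 lay within the air range, and the difference of 0.63 (standard error 0.38, 95% interval −0.21 to 1.47, limma adjusted p = 0.23) was within the spread between replicates. Batf3, best known for its role in dendritic cells, lies at chr1:191097847-191108945 (plus strand), and had normalized counts of 11.3, 12.2 and 5.13 in air and 11.5, 10.2 and 10.6 in hyperoxia. With 5 to 13 reads per library, a change of 0.23 (standard error 0.41, 95% interval −0.67 to 1.14, limma adjusted p = 0.69) could not be told from 0, and a change smaller than that interval was not detectable at this depth.

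Ordered by normalized counts per kilobase of transcript, the levels in air ran Jun (1301), Jund (978), Junb (761), Mafg (609), Fosl2 (181), Fos (103), Fosb (53.5), Maff (24.4), Batf3 (11.9) and Atf3 (10.1). Only Batf3 and Atf3 overlapped as neighbours in that order. In hyperoxia the order was Jun (784), Mafg (694), Jund (536), Junb (492), Fosl2 (253), Fos (82.1), Maff (53.1), Fosb (26.7), Atf3 (16.2) and Batf3 (13.4). Here the libraries of Jund and Junb overlapped, as did those of Atf3 and Batf3. Mafg, which was below both Junb and Jund in every air library, was above both in every hyperoxia library, and Maff and Fosb changed places in the same way.

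Among 18 other bZIP genes that are relatives or partners of AP-1 proteins, 15 were tested. Of these 3 were called lower and 2 higher, with a median change of −0.07. The share called was 5 of 15, close to the 30.5% of all genes tested that were called. Jdp2, which encodes a repressor that pairs with Jun proteins, fell from 1236 ± 56.9 to 802 ± 45.0 normalized counts (means with SD, n = 3 each), which is −0.62 in log2 units (standard error 0.08, limma adjusted p = 9.8e-04). Fosl1, the gene of FRA1 and the nearest relative of Fosl2, fell from 185 ± 20.8 to 133 ± 8.79 (means with SD, n = 3 each), a difference of −0.48 (limma adjusted p = 0.023) opposite in direction to that of Fosl2. The large Maf gene Mafa was at −0.80 (limma adjusted p = 0.025). Higher in hyperoxia were Bach2, a partner of small Maf proteins, at 0.41 (limma adjusted p = 0.019), and Atf2, a partner of Jun, at 0.28 (limma adjusted p = 0.030). The remaining 10 genes did not pass the test, with differences among them of −0.63 for Nrl, −0.24 for Nfe2l3, −0.09 for Nfe2l2 (the gene of NRF2), −0.08 for Mafk, −0.07 for Nfe2l1, −0.02 for Creb5, 0.01 for Atf7, 0.02 for Maf and 0.24 for Bach1. Jdp2 was called under all 16 alternatives, whereas the count of 5 called genes fell to 1 without air library 1, to 2 without air library 2, air library 3 or hyperoxia library 1, and to 3 without hyperoxia library 3, and was 6 without hyperoxia library 2. The changes of the other 4 genes kept their direction, at −0.83 to −0.64 for Mafa, −0.48 to −0.41 for Fosl1, 0.37 to 0.43 for Bach2 and 0.22 to 0.31 for Atf2 where the call was lost (adjusted p from 0.053 to 0.12).

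Of 25 genes that act on AP-1 genes or proteins, all were tested, 7 were called higher and 5 lower, and the median change was −0.08. The share called was 12 of 25, where 30.5% of all genes tested were called. Srf, the gene of the serum response factor, fell from 2897 ± 103 (SD, n = 3) to 2018 ± 56.5 (SD, n = 3) normalized counts, a log2 change of −0.52 (limma adjusted p = 0.0010). Its partner Elk1, a target of ERK kinases, was at −0.57 (limma adjusted p = 7.0e-04), and Map2k7, which encodes a kinase that activates Jun kinases, was at −0.38 (limma adjusted p = 0.0041). Mef2c, a factor with a known role in activity-dependent transcription, rose by 1.24 (limma adjusted p = 0.0039), with normalized counts of 14434, 8230 and 6644 in the hyperoxia libraries and 3810 to 4075 in air. Rps6ka3, the gene of the kinase RSK2, rose by 0.44 (limma adjusted p = 0.011). The Jun kinase genes, singled out after their values were seen, moved apart: Mapk8 (JNK1) was at 0.35 (limma adjusted p = 0.0090), Mapk9 (JNK2) at 0.36 (limma adjusted p = 0.0053), and Mapk10 (JNK3), the isoform of neurons, at −0.29 (limma adjusted p = 0.021). Mapk10 lost its call without any 1 of the air libraries or hyperoxia library 1 (adjusted p from 0.058 to 0.091). Creb1 was at −0.01 and was not called (limma adjusted p = 0.92). The count of 12 called genes was 7 without air library 3, 8 without air library 2 and 16 without hyperoxia library 2.

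Of 25 genes known to be under AP-1 control in some tissue, 20 were tested, 4 were called higher and 4 lower, with a median change of 0.09. Among the largest differences were those of Spp1 (osteopontin) at 1.97 (limma adjusted p = 0.0043), Cd44 (a hyaluronan receptor) at 1.14 (limma adjusted p = 0.0050), Penk (proenkephalin) at −0.85 (limma adjusted p = 5.9e-04) and Vim (vimentin) at 0.65 (limma adjusted p = 0.0056). Also called lower were Scg2 at −0.36 (limma adjusted p = 0.011) and Nptx2 at −0.35 (limma adjusted p = 0.018), both singled out after their values were seen. The share called was 8 of 20, where 30.5% of all genes were called, and the count was 5 without air library 1 and 11 without hyperoxia library 2. Scg2 lost its call without air library 1 (−0.28, limma adjusted p = 0.051), and Nptx2 without air library 1, air library 2 or hyperoxia library 1 (adjusted p from 0.063 to 0.090).

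Compared to the AP-1 genes, 15 activity-induced early genes outside the bZIP family gave 6 called lower and 1 higher, with a median change of −0.30. The share called was 7 of 15, where 30.5% of all genes tested were called. Arc, the gene of a synaptic cytoskeletal protein, had the largest difference, at −1.64 (limma adjusted p = 4.7e-05), with 5268 ± 183 (SD, n = 3) normalized counts in the columns headed as air and 1690.2 ± 143 (SD, n = 3) in those headed as hyperoxia. For Arc and Egr1 too the sign in the published tables is the opposite one, while the published text gives both directions. Npas4 was at −1.04 (limma adjusted p = 9.05e-04), Egr2 at −0.93 (limma adjusted p = 0.020), Egr1 at −0.90 (limma adjusted p = 0.0028), and Klf4 was higher at 0.97 (limma adjusted p = 0.0020). Egr2 lost its call without air library 1, air library 3 or hyperoxia library 1 (adjusted p from 0.068 to 0.093). The 6 activity genes called lower ranged from −1.64 to −0.67, a range formed only by genes that passed the call. Of the AP-1 genes Fosb (−0.98), Jund (−0.87) and Jun (−0.73) lay within that range. Junb (−0.63) and Fos (−0.31, not called) lay outside it. The activity genes that were not called had changes from −0.47 to 0.11. No test of the difference between the lists was made.

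**Figure D4:**
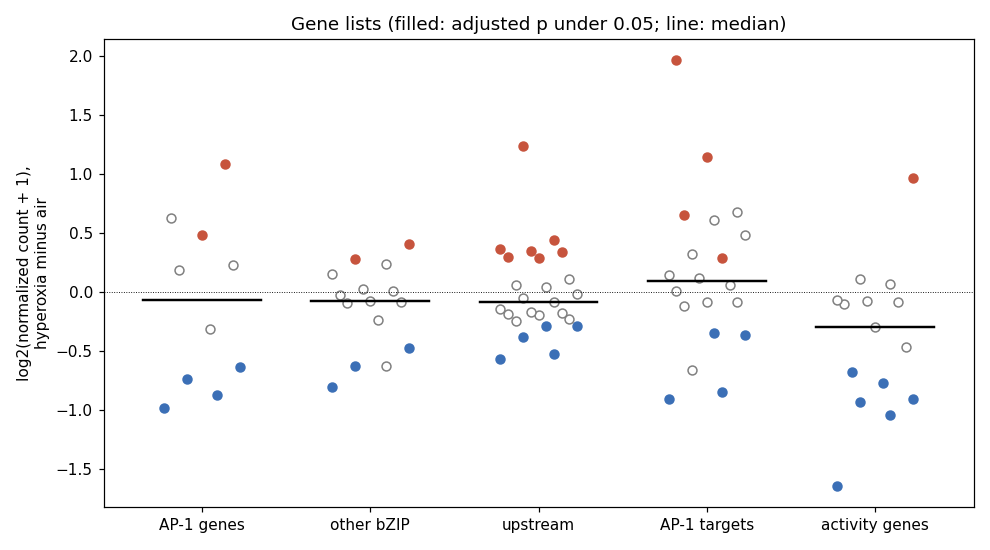
Change of each tested gene in 5 lists, as the difference of log2(normalized count + 1), hyperoxia minus air (vertical axis). Filled points are called genes (red higher, blue lower), open points are not called, and lines are medians, which run from −0.30 for the activity genes to 0.09 for the AP-1 targets.

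The genes whose pattern over the 6 libraries was most like that of Fos, Junb and Jun were found by the root mean square (RMS) difference of log2(normalized count + 1) after centring each gene on its mean. Nearest to Jun were Carmil2 (RMS difference 0.024), Gm27032 (0.033) and Pdlim7 (0.041), and among the AP-1 genes Junb (0.081) and Jund (0.093). Nearest to Junb were Gm45124 (0.017), Cd3eap (0.041) and Proser3 (0.043). Nearest to Fos were Gm15663 (0.049), Gm17147 (0.058) and Cc2d1b (0.062), and the AP-1 gene closest to Fos was Junb, at 0.23. Fos thus lay farther from every other AP-1 gene than Jun lay from Junb or Jund. With 17778 genes and 6 libraries, near matches are found for many patterns, and these names are a description only.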

How the data were processed

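RNA-seq libraries were polyA-selected and strand-specific, with paired-end reads on an Illumina NextSeq. The submitters' processing notes name FastQC, STAR 2.5.3a, HTSeq and DESeq2, without roles; the sources used here give no genome build, annotation or strand setting. The values are a signal that the authors deposited as normalized counts, read counts divided by 1 size factor per library. In each library 100% of values were whole numbers of reads (tolerance 0.01) once the size factor was undone, so reads were recovered. A second table holds the authors' fold changes, p-values and mean counts and was not used. Its name sets "R" (taken to be room air) against "85". For Jun, Arc and Egr1 the hyperoxia-versus-air signs in the published tables run opposite to the headings of the normalized counts. The published text gives both directions for Arc and Egr1, so all directions given here depend on those headings.

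Genes with a mean normalized count of at least 10 were tested on log2(normalized count + 1) in limma 3.58.1, run in R 4.3.3 with the trend option, 3 air against 3 hyperoxia libraries, with Benjamini-Hochberg adjustment. An exact two-sided permutation test of 3 against 3 could not give a p below 0.1. The limma p-values set the group difference against the spread between these animals, with each gene's variance drawn toward the trend over all genes tested. They cannot tell the exposure apart from a litter that animals of a group may have shared. The alternatives used a pseudocount of 0.5 or 5, a minimum mean of 50 or none, TMM scaling, quantile normalization, limma without the trend, edgeR 4.0.16 and DESeq2 1.42.0 on recovered reads, a length and GC correction (mgcv 1.9.3), and each library left out. The fits were tested on simulated data. Positions and transcript lengths are from GENCODE M21 (GRCm38), promoters from RefSeq (GRCm38.p6). Motif counts cover 250 bases before each start. The members and the gene lists were chosen with earlier results of these data known, from general knowledge of AP-1 biology and cell type markers. Genes named outside the 10 members are, per list, the 5 called genes with the largest change, the tested bZIP relatives, and the 3 most similar patterns for Fos, Junb and Jun; Creb1, Scg2, Nptx2, the Jun kinase genes and genes that overlap a member were added after their values were seen. Some genes that this rule would name are not reported here.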

Additional observations from a re-analysis of the deposited data

How the results depend on the processing

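Jun, Junb, Jund, Fosb, Fosl2 and Maff kept their direction and their call under all 16 alternatives, and Fos, Atf3 and Batf3 were called under none that tested them. The count of called AP-1 genes was 6 under 14 alternatives and 7, with Mafg added, under the length and GC correction and without hyperoxia library 2. Scaling by TMM or quantiles moved the median change of all genes by less than 0.1. With each library left out in turn, called genes ranged from 1 to 6 for the other bZIP genes, from 7 to 16 for the upstream genes, from 5 to 11 for the AP-1 targets, and from 3056 to 7771 over all genes (5425 with all libraries), lowest without air library 1 except for the upstream genes (air library 3) and highest in each without hyperoxia library 2. Batf3, not called, ranged from −0.12 without air library 3 to 0.27. Depth limits Batf3 and Atf3, which a minimum mean of 50 removes. No paired analysis was possible because the numbers of the columns are not those of the animals and the animals of the groups share no number.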

Other observations

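In all, 3 genes of the bZIP list were below the minimum for testing. Batf had a mean normalized count of 3.59 in air and 4.80 in hyperoxia, Batf2 5.93 and 2.82, and Nfe2 5.88 and 4.65. Of the AP-1 targets linked to inflammation and matrix breakdown, Ccl2 (1.59 and 3.04) and Mmp13 (1.98 and 3.05) were also below it. Il6, Mmp3 and Mmp10 were not found by name among the 24935 genes.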
